A study of Mus musculus with 17 samples.

Results

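Mouse CD4 T cells that had switched on Foxp3 during culture with dendritic cells (DC) of the gut lamina propria were compared with cells of such cultures that had not. The comparison was defined by the array titles and the sort after culture, and uses 4 of the 17 Affymetrix expression arrays of the series: 2 of Foxp3+ cells and 2 of Foxp3- cells. All the T cells started as CD4+ Foxp3- spleen cells of male C57BL/6-Foxp3/GFP mice, 6 to 10 weeks old, in which green fluorescent protein reports Foxp3. They were cultured for 5 days at 10 T cells per lamina propria DC with anti-CD3 (1 ug/ml), TGFbeta (0.6 ng/ml) and IL-2 (5 ng/ml, added on days 2 and 4). The Foxp3+ group was then sorted as CD4+ and GFP+, and the Foxp3- group as CD4+ and GFP-. The RNA for each array came from 3 pooled mice and was amplified 2 times before labelling. Both groups had therefore met lamina propria DC, TGFbeta and IL-2, and differ by the sort. One label field of the second Foxp3+ array calls its cells Foxp3-, while its title and its sort field say Foxp3+, and these were followed. Spleen DC with TGFbeta (2 Foxp3+ and 2 Foxp3- arrays) and spleen DC with TGFbeta plus 100 nM retinoic acid (2 Foxp3+ arrays and 1 Foxp3- array) served for comparison.

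Foxp3 is the transcription factor that defines regulatory T cells, which restrain other immune cells. TGFbeta and T cell receptor signals can switch it on in mature CD4 cells, and DC of the intestine are known for favouring that switch, in part because they make retinoic acid from vitamin A. Regulatory T cells carry high levels of the IL-2 receptor, of CTLA-4 and of several TNF receptor family members, and make little of the cytokines of effector T cells.

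Levels below are log2 of the authors' RMA intensities, and a difference is the Foxp3+ minus the Foxp3- mean with its standard error (SE) from 1 limma model of the 11 culture arrays, in which arrays with the same number are paired. A gene is said to rise or fall in Foxp3+ cells where its Benjamini-Hochberg adjusted p over the 11846 genes tested was below 0.05. By that rule 424 genes changed (3.58% of those tested), 284 of them higher (2.4%) and 140 lower (1.18%), and 227 differed at least 2-fold. Counts of list members below are to be read beside these shares. All 424 differed in the same direction in both pairs of arrays, which selection by a paired model favours. Foxp3+ and Foxp3- arrays did not overlap in 404 of them, against 3476 of all genes tested (29.3%). Without pairing the arrays, 16 genes passed (0.135%), 12 of them higher (0.101%) and 4 lower (0.0338%), all of them among the 424. These were Gpr83, Dusp4, Enah, Cd83, Efna5, Izumo1r, Gnaq, Slc44a1, Tm4sf5, Cdhr3, Ltf and E030024N20Rik, which rose, and Fgl2, Rcbtb2, Rnf144a and 2810001G20Rik, which fell. Every other rise and fall below passed in the paired model only. The pairing rests on the array numbers and on the correlation of same-numbered arrays after group means were removed (0.446 to 0.752 over 10 pairs of groups). It also rests on the scan names in the labels, which run in 2 series that follow the number. The labels do not say what the array numbers stand for. Nor do they say that the 2 arrays of a group came from separate cultures. The p-values therefore measure the spread left between the 11 culture arrays after group and array number were fitted. That spread may not be the one between separate cultures.

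The identity of the cells was examined on the 4 arrays first. The T cell genes Cd3d (12.34 and 12.66 in Foxp3+ cells, 12.52 and 12.66 in Foxp3- cells) and Cd4 (9.27 and 9.35 in Foxp3+ cells, 9.23 and 9.44 in Foxp3- cells) were high in both groups and did not pass the test. Of 9 DC and macrophage markers examined, Itgax, H2-Aa and Lyz2 lay below the array median on all 4 arrays, as did the NK cell gene Ncr1. The class II gene H2-Ab1 lay well above it (9.52 and 9.52 in Foxp3+ cells, 8.85 and 9.16 in Foxp3- cells), Cd74, Csf1r, H2-Eb1 and Flt3 lay at 6.27 to 6.87, and Zbtb46 lay at 5.97 to 6.32. In limma 0 of the 7 tested members of a wider list of 17 DC and macrophage markers passed (1 at an unadjusted p below 0.05). Among the 6 tested B cell markers 0 passed as well (0 unadjusted). The single Foxp3 probe set gave 4.38 and 4.27 in Foxp3+ cells and 4.25 and 4.21 in Foxp3- cells, below the array medians of 5.88 to 5.98, and was not tested. It therefore does not check the sort labels. The regulatory T cell genes below come nearest to such a check on these arrays. Their list was chosen with earlier results of these data known, so it is not an independent check.

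**Figure D1:**
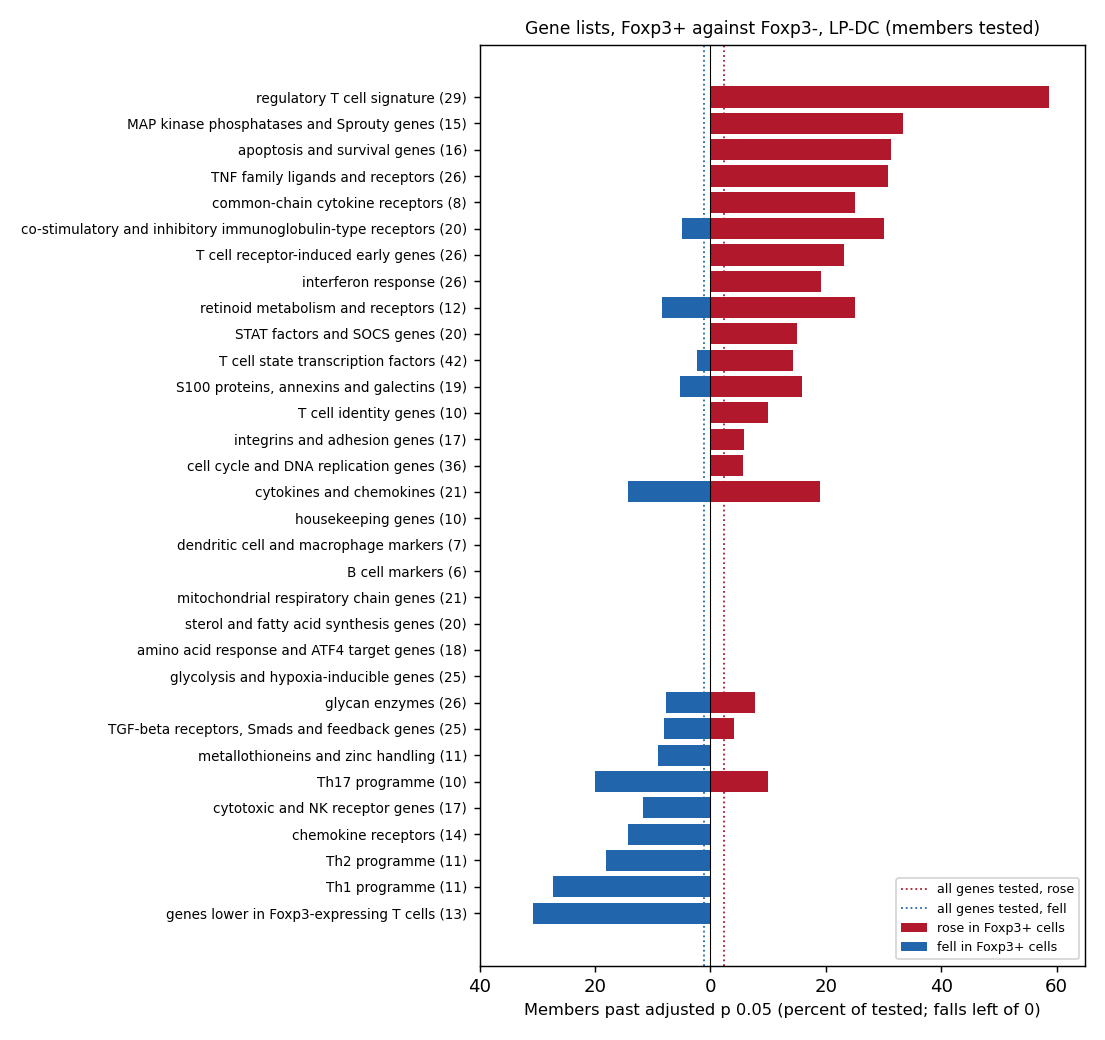
Members of each gene list (y axis, number of tested members in parentheses) that passed an adjusted p of 0.05 in the lamina propria DC culture, as a percentage of the members tested (x axis); red bars to the right of 0 rose in Foxp3+ cells, blue bars to the left fell, and dotted lines mark all genes tested (2.4% and 1.18%). The regulatory T cell signature has the longest bar, with 17 of 29 genes higher, and 7 lists with no passing member have no bar.

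Genes known as the signature of regulatory T cells were higher in the Foxp3+ cells. Of 29 tested members 17 rose and 0 fell, with a median difference of 1.01, against 0.003 over all genes tested. The surface receptor Gpr83 had levels of 10.16 and 9.85 in Foxp3+ cells, against 6.30 and 7.15 in Foxp3- cells, which is a difference of 3.28 ± 0.37 (adjusted p = 0.00197). Il2ra, which encodes CD25 of the high-affinity IL-2 receptor, measured 11.63 and 12.06 in Foxp3+ cells and 9.07 and 10.64 in Foxp3- cells (1.99 ± 0.41, adjusted p = 0.0296). Both Foxp3+ arrays of either gene lay above both Foxp3- arrays, and the first Foxp3- array was the lowest of the 4. Socs2, a feedback inhibitor of cytokine signalling, gave 11.32 and 11.47 in Foxp3+ cells and 9.12 and 9.88 in Foxp3- cells (1.89 ± 0.25, adjusted p = 0.00339).

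Ctla4, the inhibitory receptor that competes with CD28, lay far above the array median in both sorts. Its levels were 12.59 and 12.28 in Foxp3+ cells and 11.83 and 11.01 in Foxp3- cells (1.01 ± 0.21, adjusted p = 0.0285). The Ikaros family factors Ikzf2 (Helios), at 12.54 and 12.12 in Foxp3+ cells and 11.79 and 11.23 in Foxp3- cells, and Ikzf4 (Eos), at 11.88 and 12.02 in Foxp3+ cells and 10.84 and 11.09 in Foxp3- cells, differed by 0.82 ± 0.18 and 0.98 ± 0.17. In these 3 genes the groups did not overlap, and the Foxp3- cells were well above background too.

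The list also holds Ebi3, a subunit of IL-27 and IL-35, Penk, the precursor of enkephalins, Rgs1, a regulator of G protein signalling, the transcription factor Gata1 and the folate receptor family member Izumo1r (folate receptor 4), which rose by 1.21 to 2.01. Members that did not pass were Itgae (0.47 ± 0.58), Nt5e (0.25 ± 0.21), Entpd1 (0.35 ± 0.21) and Lag3 (0.08 ± 0.14). Nt5e (CD73) and Entpd1 (CD39) form the pair of ectoenzymes that turns ATP into adenosine, and Itgae (CD103) ranged more widely within the Foxp3- group (11.47 and 9.62) than between the groups. Without LP Foxp3+ array 1, LP Foxp3+ array 2, LP Foxp3- array 1 or LP Foxp3- array 2, the count of rises was 8, 10, 10 and 14. Il2ra, Ctla4, Ikzf2, Ikzf4, Rgs1, Penk and Gata1 lost their call in at least 3 of those 4 refits, while Gpr83, Cd83, Izumo1r, Socs2, Cish, Tnfrsf4, Tnfrsf9 and Tnfrsf18 kept it in every refit without 1 array.

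**Figure D2:**
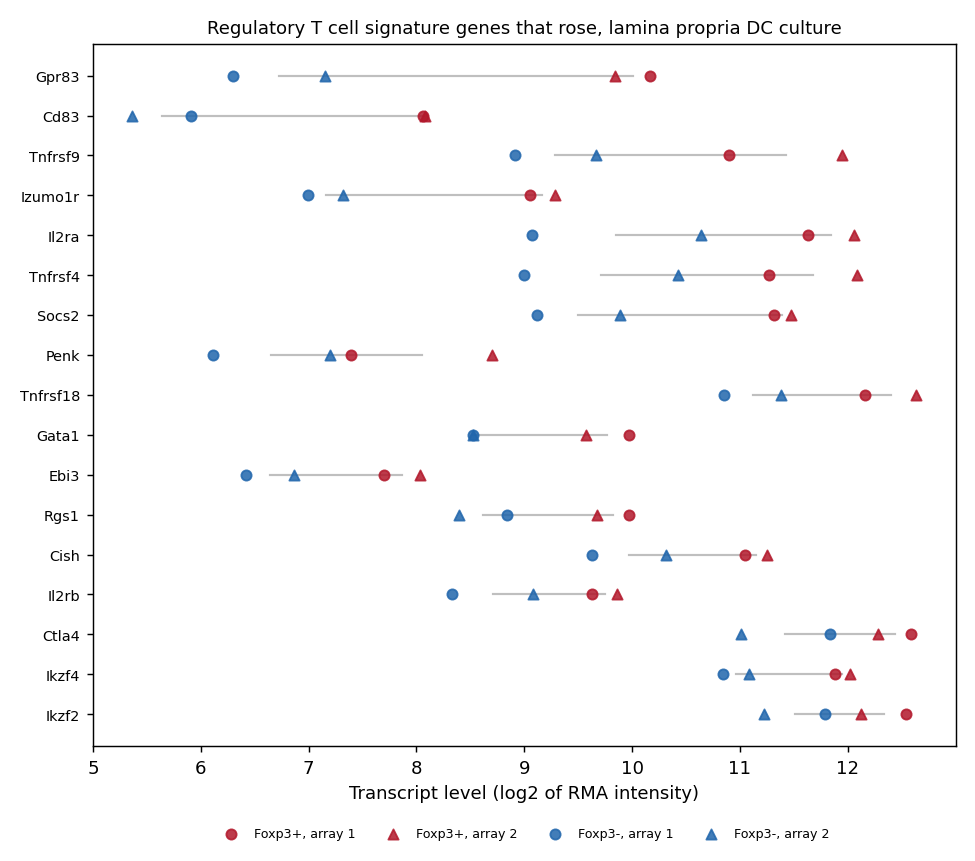
Level (log2 RMA intensity, x axis) of the 17 regulatory T cell signature genes that rose (y axis, largest difference on top) in each of the 4 arrays; red symbols are Foxp3+ arrays, blue symbols Foxp3- arrays, circles array 1, triangles array 2, and grey lines join the group means. Red symbols lie right of blue symbols in every gene, and in 11 of them array 2 lies right of array 1 in both sorts.

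Receptors and ligands of the TNF family rose as well. Of 26 tested members 8 rose and 0 fell, with a median difference of 0.39. The co-stimulatory receptor Tnfrsf9 (4-1BB) measured 10.90 and 11.95 in Foxp3+ cells, against 8.91 and 9.66 in Foxp3- cells (2.14 ± 0.25, adjusted p = 0.00232). Tnfrsf4 (OX40) measured 11.27 and 12.09 in Foxp3+ cells and 9.0 and 10.43 in Foxp3- cells (1.97 ± 0.19, adjusted p = 0.00113), and Tnfrsf18 (GITR) 12.16 and 12.64 in Foxp3+ cells and 10.86 and 11.38 in Foxp3- cells (1.28 ± 0.14, adjusted p = 0.00197). In all 3 genes the second array of each sort was the higher one, and in each pair the Foxp3+ array was more than 1 unit above its partner. These 3 genes belong to the signature list too.

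The other 5 were the death receptor Fas (1.08 ± 0.15), Cd40 (1.39 ± 0.20), the death ligand Tnfsf10 (TRAIL; 1.63 ± 0.32), and the lymphotoxins Lta (1.46 ± 0.29) and Ltb (0.68 ± 0.13), which together form the ligand of the lymphotoxin beta receptor. Cd40, best known from antigen-presenting cells, gave 7.34 and 6.99 in Foxp3+ cells and 5.77 and 5.77 in Foxp3- cells, so that the Foxp3- arrays lay below the array median and the rise may be understated. The list had 5 rises without LP Foxp3+ array 1, LP Foxp3+ array 2 or LP Foxp3- array 1. Lta and Tnfsf10 were not called in any of these 3 refits.

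Among 20 tested co-stimulatory and inhibitory receptors of the immunoglobulin type, 6 rose and 1 fell. Cd83 measured 8.06 and 8.08 in Foxp3+ cells and 5.91 and 5.36 in Foxp3- cells, a difference of 2.44 ± 0.15 (adjusted p = 0.00018). The PD-1 ligands Pdcd1lg2 (PD-L2) and Cd274 (PD-L1) rose by 1.42 ± 0.18 and 0.82 ± 0.16, while the probe set for their receptor Pdcd1 stayed at 4.44 to 4.86 on all 11 culture arrays and was not tested. Cd200 (1.17 ± 0.16), a ligand that restrains myeloid cells, and Slamf1 (0.90 ± 0.14), a homophilic receptor of activated T cells, rose. Cd96, a receptor of T and NK cells, fell, at 10.01 and 9.84 in Foxp3+ cells and 10.96 and 10.34 in Foxp3- cells (-0.72 ± 0.14). Without LP Foxp3+ array 1 the list had 2 rises, Cd83 and Pdcd1lg2, and with any other LP array left out it had 4 or 5. Cd96 was lost without LP Foxp3+ array 1 or LP Foxp3- array 1.

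Further genes of IL-2 signalling rose beside Il2ra. Il2rb, which encodes the beta chain, measured 9.63 and 9.86 in Foxp3+ cells, against 8.33 and 9.08 in Foxp3- cells (1.04 ± 0.16). Of 20 tested members of the STAT and SOCS list, which also holds Jak kinase genes, Pias1 and Ptpn2, Socs2, Cish (1.18 ± 0.14) and Socs5 (0.81 ± 0.17) rose and 0 fell. Cish is a STAT5-induced inhibitor of cytokine receptors. Il7r, the receptor for the survival cytokine IL-7, lay far above the array median in both sorts, with 12.62 and 13.37 in Foxp3+ cells and 12.93 and 13.40 in Foxp3- cells, and did not pass (-0.17 ± 0.13). The list of common-chain cytokine receptors also holds the cytokine genes Il7 and Il15. Among its 8 tested members, Il2ra and Il2rb were the ones that passed. Neither was called without LP Foxp3+ array 1 or LP Foxp3- array 1, and Socs5 was lost without any 1 of the 4 LP arrays.

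Genes that T cell receptor signals switch on early were higher in Foxp3+ cells 5 days into culture, with 6 of 26 tested members higher, 0 lower and a median of 0.49. The orphan nuclear receptor Nr4a3 had levels of 9.66 and 10.66 in Foxp3+ cells, against 7.70 and 8.63 in Foxp3- cells (2.00 ± 0.19, adjusted p = 0.00113). Jun, a subunit of AP-1, had 9.42 and 8.66 in Foxp3+ cells and 8.02 and 7.20 in Foxp3- cells (1.43 ± 0.18, adjusted p = 0.00273). For both genes the pairs gave nearly the same difference although the 2 arrays of a sort differed. Pim1 (1.23 ± 0.15), a survival kinase, Rel (1.03 ± 0.24), an NF-kB subunit, the activation marker Cd69 (0.96 ± 0.20) and Nfkbia (0.77 ± 0.14), the inhibitor of NF-kB, also rose. Another tested probe set of Nr4a3 hardly differed between the groups (-0.006) and did not pass. Nr4a3, Jun and Pim1 passed in every refit without 1 array, and Rel in 3 of 11. The list had 3 rises without LP Foxp3+ array 1 or LP Foxp3- array 1 and 4 without either of the other LP arrays.

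Feedback inhibitors of the MAP kinase pathway rose too, with 5 of 15 tested members higher and 0 lower. The largest was Dusp4, a nuclear phosphatase of ERK, with 9.54 and 9.48 in Foxp3+ cells and 6.00 and 6.69 in Foxp3- cells (3.17 ± 0.24, adjusted p = 0.000249). Dusp1 measured 7.61 and 7.53 in Foxp3+ cells and 6.31 and 6.32 in Foxp3- cells (1.25 ± 0.16, adjusted p = 0.00339). Both are phosphatases that remove the activating phosphates of MAP kinases. Spry1 (1.01 ± 0.18), Dusp16 (0.78 ± 0.12) and Spred1 (0.70 ± 0.16) rose with them. Dusp1 and Dusp4 passed in every refit without 1 array. The list had 3 rises without LP Foxp3+ array 1, and 2 without LP Foxp3+ array 2 or LP Foxp3- array 1.

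In the list of apoptosis and survival genes 5 of 16 tested members rose and 0 fell, with a median of 0.44. The 5 act in opposite ways. Bcl2l1 (BCL-XL), which blocks mitochondrial apoptosis, had 9.28 and 9.90 in Foxp3+ cells and 8.44 and 8.74 in Foxp3- cells (1.00 ± 0.14). Pmaip1 (NOXA), which promotes it, had 9.28 and 8.78 in Foxp3+ cells and 7.32 and 7.22 in Foxp3- cells (1.76 ± 0.24). The stress genes Gadd45g (1.18 ± 0.13) and Gadd45b (1.16 ± 0.22) and the caspase-binding Birc3 (0.65 ± 0.15) completed the 5, and Bcl2 did not pass (0.37 ± 0.15). Leaving out any LP array left 2 or 3 rises, with Birc3 and Gadd45b lost in all 4 refits.

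Interferon-induced genes had 5 rises and 0 falls among 26 tested, with a median of 0.22. Ifitm3, a membrane protein that restricts virus entry, had levels of 12.04 and 12.29 in Foxp3+ cells, against 8.76 and 10.38 in Foxp3- cells (2.59 ± 0.53, adjusted p = 0.0271). Its neighbour in the family, Ifitm2, had 10.75 and 10.73 in Foxp3+ cells and 8.73 and 9.79 in Foxp3- cells (1.48 ± 0.31). In both genes the Foxp3+ arrays were alike and the Foxp3- arrays more than 1 log2 unit apart. The guanylate-binding GTPases Gbp3 (1.42 ± 0.16) and Gbp2 (1.21 ± 0.16) and the exonuclease Isg20 (1.03 ± 0.23) rose. Gbp2 was one of the 20 called genes whose groups overlapped, with 9.40 and 10.81 in Foxp3+ cells and 8.20 and 9.59 in Foxp3- cells, so its call rests on the pairing. Without LP Foxp3+ array 2 or LP Foxp3- array 1 the list had 2 rises, Gbp2 and Gbp3. Ifitm2 and Ifitm3 were lost in both and also without LP Foxp3+ array 1. Of the 11 refits without 1 array, Ifitm3 was called in 4 and Ifitm2 in 6.

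**Figure D3:**
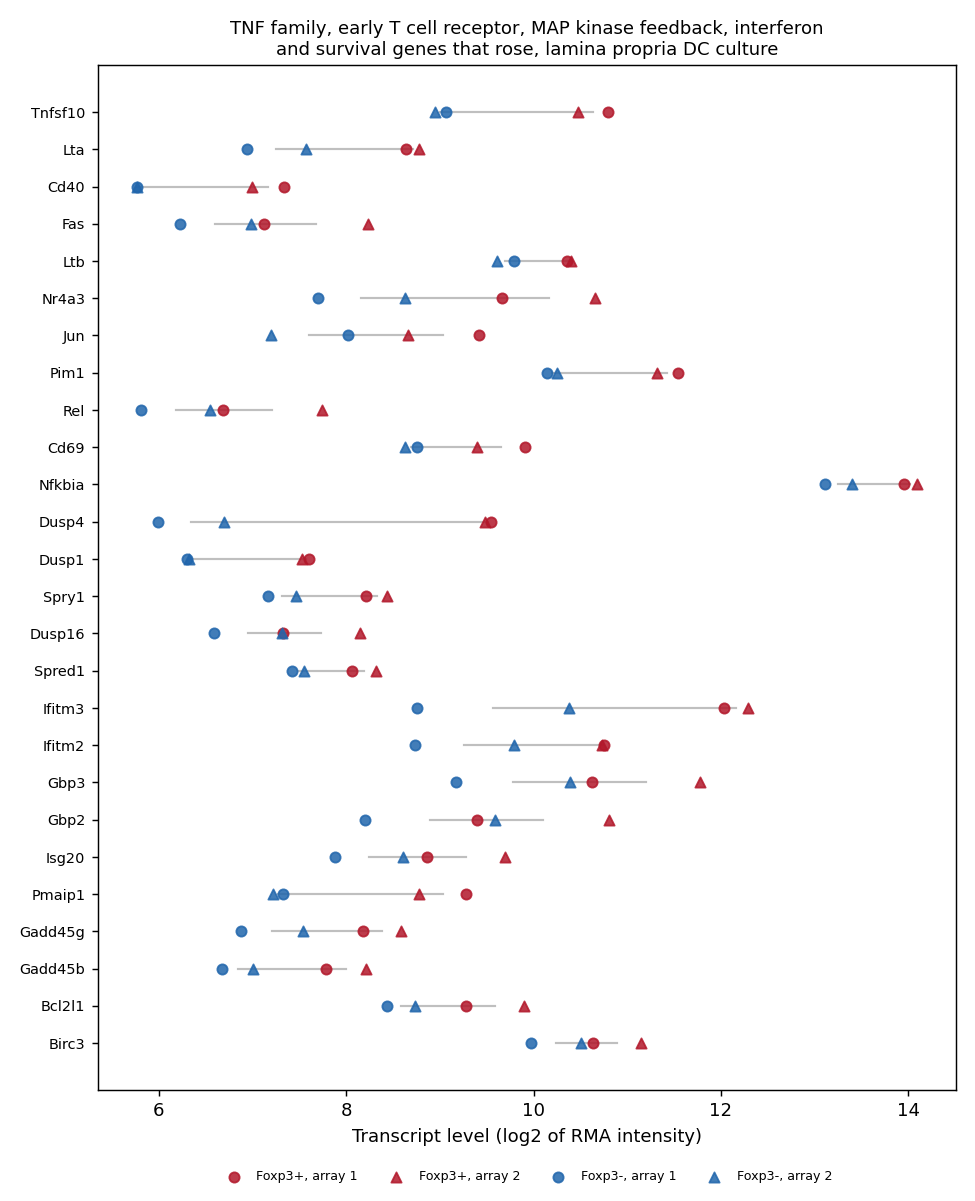
Level (log2 RMA intensity, x axis) in each of the 4 arrays for the members of the TNF family, early T cell receptor, MAP kinase feedback, interferon and survival lists that rose and are not among the signature genes (y axis, in that order of lists); red symbols are Foxp3+ arrays, blue symbols Foxp3- arrays, circles array 1, triangles array 2, and grey lines join the group means. In Gbp2 the Foxp3+ circle lies left of the Foxp3- triangle while each pair keeps the same direction.

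NF-kB, AP-1 and forkhead factors are known regulators of T cell genes of these kinds, and Foxp3 itself is a forkhead factor. Promoter windows of 300 bases, most of it upstream of the gene start, were taken from RefSeq (GRCm38.p6) and searched on both strands. A window was found for 233 of the 284 genes that rose, 108 of the 140 that fell and 9594 of all tested. The NF-kB motif (GGGA, any 2 bases, TTCC) was in 6 windows of genes that rose (2.58%), in 0 of genes that fell and in 1.42% of all windows. The AP-1 motif TGANTCA was in 5.58% of genes that rose, 6.48% of genes that fell and 5.13% of all. The forkhead motif TGTTTAC was in 2.58%, 2.78% and 2.74% in the same order, the CRE motif TGACGTCA in 3.00%, 0% and 3.14%, and the E-box CACGTG in 8.15%, 12% and 9.93%. Median GC content was 61.0%, 57.2% and 60.7%. The 4 windows below belong to genes described here that hold the NF-kB letters, shown with every searched motif in capitals and the rest in lower case, 5′ to 3′ on the strand of the gene. They lie at chr12:55492598-55492897 on the minus strand (Nfkbia), chr17:35194257-35194556 on the plus strand (Ltb), chr3:142620413-142620712 on the plus strand (Gbp2) and chr7:141010695-141010994 on the minus strand (Ifitm3).
Nfkbia: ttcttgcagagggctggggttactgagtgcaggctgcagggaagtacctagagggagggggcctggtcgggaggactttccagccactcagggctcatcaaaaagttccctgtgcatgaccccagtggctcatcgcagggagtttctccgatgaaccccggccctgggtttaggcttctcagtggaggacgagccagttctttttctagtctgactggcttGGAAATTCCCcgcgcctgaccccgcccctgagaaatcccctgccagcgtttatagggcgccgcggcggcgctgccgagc
Ltb: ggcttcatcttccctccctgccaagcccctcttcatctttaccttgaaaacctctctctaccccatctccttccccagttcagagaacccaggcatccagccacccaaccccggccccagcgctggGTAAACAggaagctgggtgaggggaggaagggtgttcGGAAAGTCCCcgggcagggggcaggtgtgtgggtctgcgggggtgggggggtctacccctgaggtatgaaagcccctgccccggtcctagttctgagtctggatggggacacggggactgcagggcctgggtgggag
Gbp2: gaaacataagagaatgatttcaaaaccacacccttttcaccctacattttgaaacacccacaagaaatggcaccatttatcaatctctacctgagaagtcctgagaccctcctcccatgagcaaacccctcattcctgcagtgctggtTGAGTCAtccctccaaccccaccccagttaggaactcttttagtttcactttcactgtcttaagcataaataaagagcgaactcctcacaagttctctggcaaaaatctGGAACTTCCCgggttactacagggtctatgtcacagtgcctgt
Ifitm3: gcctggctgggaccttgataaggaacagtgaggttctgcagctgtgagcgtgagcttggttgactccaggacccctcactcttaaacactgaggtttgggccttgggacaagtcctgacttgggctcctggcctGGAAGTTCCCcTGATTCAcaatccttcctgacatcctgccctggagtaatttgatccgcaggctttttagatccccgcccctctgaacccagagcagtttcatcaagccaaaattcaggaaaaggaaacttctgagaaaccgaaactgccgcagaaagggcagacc
Nfkbia holds the NF-kB letters alone, Ltb holds them downstream of a forkhead match, and Gbp2 and Ifitm3 hold an AP-1 match as well. A match is a run of letters in this window, and binding was not measured.

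Of 42 tested transcription factors of T cell states, 6 rose and 1 fell. Myb, known for its role in lymphocyte progenitors and in effector regulatory T cells, had 9.04 and 9.02 in Foxp3+ cells, against 4.76 and 6.33 in Foxp3- cells, a difference of 3.48 ± 0.56 (adjusted p = 0.00885) or 11.2-fold. The first Foxp3- array lay below the array median and the second just above it. Beside Ikzf2 and Ikzf4, the AP-1 factor Batf (0.92 ± 0.17), Hopx (0.93 ± 0.16) and the secretory pathway factor Xbp1 (0.64 ± 0.15) rose, and Maf, a factor of IL-4 and IL-10 producing cells, fell (-1.40 ± 0.22). Batf groups overlapped, with 7.96 and 9.15 in Foxp3+ cells and 7.20 and 8.07 in Foxp3- cells. Factors of naive or resting T cells did not pass, among them Satb1 (-0.40 ± 0.15), Lef1 (-0.30 ± 0.13) and Id3 (-0.66 ± 0.34), nor did Id2 (-0.62 ± 0.30). The count of rises was 1 without LP Foxp3+ array 1 or LP Foxp3- array 1, 2 without LP Foxp3+ array 2 and 3 without LP Foxp3- array 2, with Myb not called in the first 2 of these refits. Maf was lost without LP Foxp3+ array 2 or LP Foxp3- array 1. Xbp1 was called in 2 of the 11 refits without 1 array.

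Several of the largest rises are not classical regulatory T cell genes. Cd24a, a glycosylated surface protein of immature lymphocytes, showed the largest rise of all genes tested, 3.95 ± 0.57 or 15.5-fold (adjusted p = 0.00521), with 11.40 and 9.59 in Foxp3+ cells and 6.42 and 6.66 in Foxp3- cells. Ecm1, a secreted matrix protein, measured 9.75 and 11.12 in Foxp3+ cells and 6.35 and 7.94 in Foxp3- cells (3.29 ± 0.14). Its pairs differed by nearly the same amount, which gave it the lowest adjusted p, 7.73e-06, while it did not pass unpaired (adjusted p = 0.209).

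The tetraspanin Cd81 had 10.77 and 10.87 in Foxp3+ cells and 7.33 and 8.59 in Foxp3- cells (2.86 ± 0.30). Sgk1, a kinase of salt sensing and PI3 kinase signalling, had 11.64 and 11.07 in Foxp3+ cells and 8.08 and 9.01 in Foxp3- cells (2.81 ± 0.44). Cpe, a carboxypeptidase that trims peptide hormones and enkephalin precursors, had 10.39 and 10.32 in Foxp3+ cells and 6.79 and 8.17 in Foxp3- cells (2.87 ± 0.65, adjusted p = 0.0425). In all 3 the Foxp3+ arrays were close together and the first Foxp3- array was the lowest. Cpe was called in 4 of 11 refits without 1 array, Sgk1 in 9 and Cd81 in all 11. The other tested probe set of Cpe did not pass in limma (0.07, adjusted p = 0.97), so the Cpe call rests on 1 probe set.

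Other large rises were of single genes with varied roles. Enah, an actin regulator, had 11.84 and 11.96 in Foxp3+ cells and 8.92 and 9.52 in Foxp3- cells (2.68 ± 0.20), and Tubb2b, a beta-tubulin, rose by 2.12 ± 0.14. Icam1, the ligand of the integrin LFA-1, had 9.93 and 10.52 in Foxp3+ cells and 8.71 and 9.07 in Foxp3- cells (1.34 ± 0.14). It was the single call among 17 tested integrins and adhesion genes, against 3.58% of all genes tested. Cd2, an adhesion receptor of T cells, rose by 1.23 ± 0.15. Further surface or membrane genes were Efna5, an ephrin (2.25 ± 0.17), Stxbp6, a syntaxin-binding protein (2.65 ± 0.39), Amigo2 (2.42 ± 0.31), the prion protein gene Prnp (2.07 ± 0.31) and the protein C receptor Procr (2.06 ± 0.29). Rragd, a GTPase that carries amino acid signals to mTORC1 (2.06 ± 0.24), and the phosphatase Ppm1l (2.14 ± 0.24) completed this range, together with Lad1, C1qtnf12, Zfp467 and Tcf24 at 2.05 to 2.24. The Foxp3- arrays of Tcf24 lay more than 1 log2 unit below the array median, so its fold may be understated, as may that of Amigo2, whose Foxp3- arrays (4.64 and 5.24) were also below the median.

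**Figure D4:**
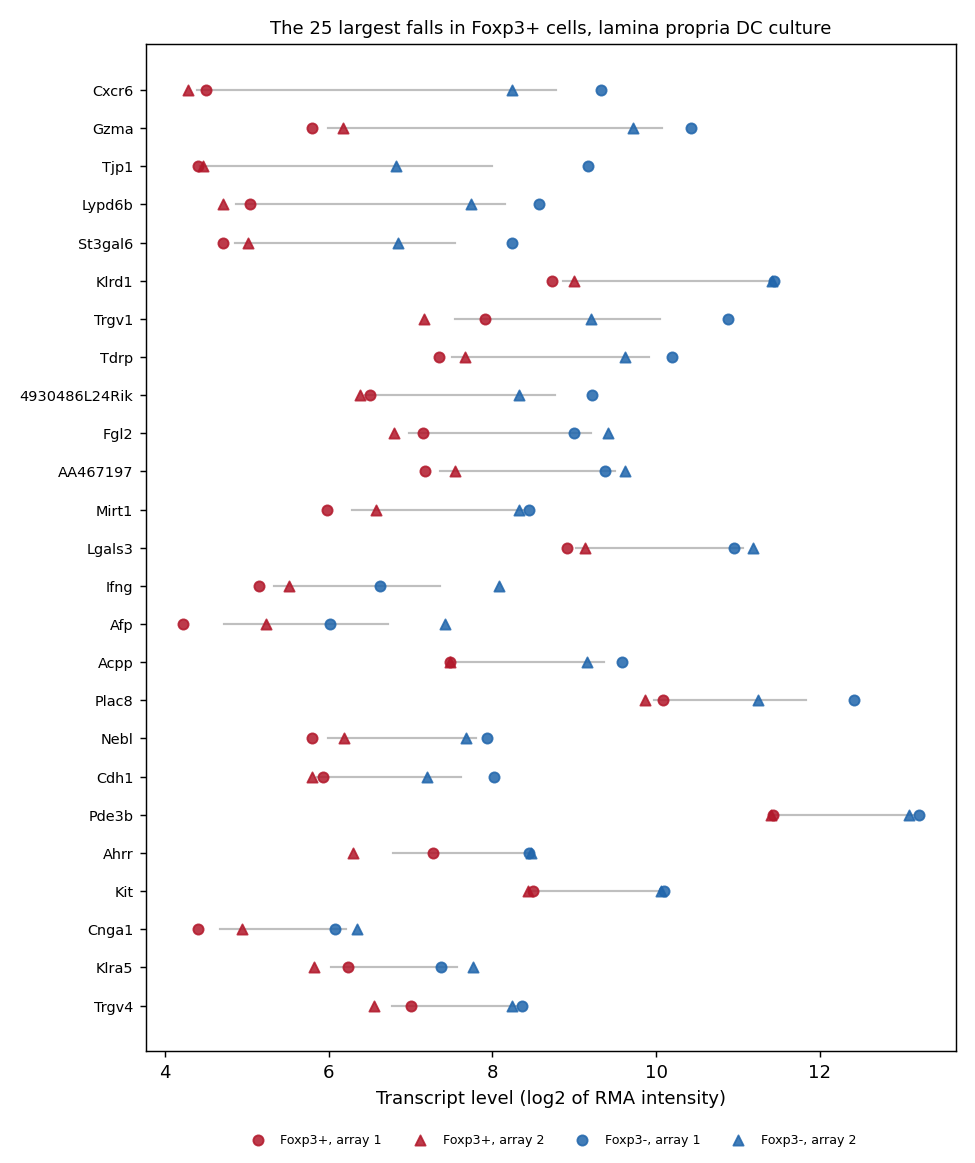
Level (log2 RMA intensity, x axis) of the 25 genes with the largest falls in Foxp3+ cells whose groups did not overlap (y axis, largest fall on top) in each of the 4 arrays; red symbols are Foxp3+ arrays, blue symbols Foxp3- arrays, circles array 1, triangles array 2, and grey lines join the group means. Cxcr6 and Tjp1 have both Foxp3+ arrays between 4.28 and 4.50, below the array median.

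Genes lower in Foxp3+ cells were led by Cxcr6 and Gzma. Cxcr6, a chemokine receptor of effector and tissue T cells, had 4.50 and 4.28 in Foxp3+ cells, against 9.33 and 8.24 in Foxp3- cells (-4.39 ± 0.75, adjusted p = 0.0118). Since the Foxp3+ arrays lay more than 1 unit below the array median, the 21.0-fold gap may understate the change. Gzma, which encodes granzyme A, had 5.80 and 6.18 in Foxp3+ cells and 10.42 and 9.72 in Foxp3- cells (-4.08 ± 0.74, adjusted p = 0.0155), or 16.9-fold. Cxcr3, the receptor of interferon-induced chemokines, fell by 1.07 ± 0.18. Cxcr6 and Cxcr3 were the 2 calls among 14 tested members of the chemokine receptor list, which also holds S1pr1, S1pr4 and Gpr183. The gut-homing receptor Ccr9 did not pass (-0.73 ± 0.40), with Foxp3- arrays at 5.21 and 4.02 and both Foxp3+ arrays at 3.79 to 3.99. Cxcr6, Cxcr3 and Gzma were not called without LP Foxp3+ array 1 or LP Foxp3- array 1, and Cxcr6 and Gzma were also lost without LP Foxp3+ array 2.

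Gzmb, which encodes granzyme B, had 10.81 and 10.94 in Foxp3+ cells and 9.99 and 11.06 in Foxp3- cells and did not pass (0.35 ± 0.20). The perforin gene Prf1 lay at 5.35 to 5.78 on all 11 culture arrays and was not tested. Klrd1 (CD94), a lectin-like receptor of NK and some T cells, had 8.73 and 9.0 in Foxp3+ cells and 11.44 and 11.42 in Foxp3- cells (-2.56 ± 0.24, adjusted p = 0.00112) and passed in every refit without 1 array. Gzma and Klrd1 were the 2 calls among 17 tested cytotoxic and NK receptor genes, whose median difference was -0.39. Fgl2, a secreted fibrinogen-like immunosuppressive protein that is also known from regulatory T cells, fell as well, with 7.15 and 6.80 in Foxp3+ cells and 8.99 and 9.41 in Foxp3- cells (-2.23 ± 0.22, adjusted p = 0.00123).

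Some markers of other lymphocytes fell too, while others did not pass or lay below the array median. The gamma chain gene segment probe sets Trgv1 (7.91 and 7.17 in Foxp3+ cells, 10.88 and 9.21 in Foxp3- cells) and Trgv4 (7.0 and 6.55 in Foxp3+ cells, 8.36 and 8.23 in Foxp3- cells) fell by 2.51 ± 0.36 and 1.52 ± 0.27. Klra5, an NK cell receptor of the Ly49 family, had 6.24 and 5.82 in Foxp3+ cells and 7.37 and 7.77 in Foxp3- cells (-1.54 ± 0.20). Cd8a had 5.35 and 4.68 in Foxp3+ cells and 7.01 and 5.53 in Foxp3- cells (-1.26 ± 0.24), so that on this probe set 1 of the 4 arrays, the first of Foxp3- cells, lay above the array median. Of its other probe sets 2 were tested and did not pass, with differences of -0.16 (adjusted p = 0.79) and -0.54 (adjusted p = 0.438), the first of them at 7.34 and 7.39 in Foxp3+ cells and 7.51 and 7.54 in Foxp3- cells. The Cd8a call rests on the 1 probe set. Cd8b1 and Ncr1 were below the array median on all 4 arrays, and Sox13, a gene of gamma delta T cells, did not differ by a passing amount (6.72 and 6.86 in Foxp3+ cells, 6.88 and 6.83 in Foxp3- cells). The NK cell gene Nkg7 (-0.84) and Zbtb16 (0.06) did not pass either. The part of such cells in the falls was not tested, and in these sorted bulk samples fewer cells of a type and less RNA per cell cannot be told apart. The Cd8a call was lost without LP Foxp3+ array 1, LP Foxp3+ array 2 or LP Foxp3- array 1, that of Trgv4 without LP Foxp3+ array 1, LP Foxp3+ array 2 or LP Foxp3- array 2, and Trgv1 and Klra5 passed in every refit without 1 array.

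The lead cytokines of 3 kinds of T helper cell were lower in Foxp3+ cells. Ifng, the Th1 cytokine interferon gamma, had 5.15 and 5.52 in Foxp3+ cells, against 6.63 and 8.09 in Foxp3- cells (-2.03 ± 0.39, adjusted p = 0.0218). Il4, the Th2 cytokine, had 5.44 and 5.14 in Foxp3+ cells and 6.63 and 5.99 in Foxp3- cells (-1.02 ± 0.18, adjusted p = 0.015). Il17a, the Th17 cytokine, had 6.73 and 6.65 in Foxp3+ cells and 7.85 and 7.91 in Foxp3- cells (-1.19 ± 0.16, adjusted p = 0.00408). In Ifng and Il4 both Foxp3+ arrays lay below the array median, and their folds may be understated.

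Of 11 tested Th1 genes 3 fell and 0 rose (Ifng, Cxcr3 and Il18rap, an IL-18 receptor chain), of 11 Th2 genes 2 fell and 0 rose (Il4 and Maf), and of 10 Th17 genes Il17a and the aryl hydrocarbon receptor Ahr (-1.16 ± 0.19) fell and Batf rose. The Ahr repressor Ahrr, itself a target of Ahr, fell by 1.67 ± 0.23. Tbx21 (T-bet) missed the threshold at -1.28 ± 0.31 (adjusted p = 0.0617), Gata3 gave 0.61 ± 0.19 and Il10 -0.54 ± 0.29. Il2 and Il21 lay at 4.67 to 5.64 on all 11 culture arrays and were not tested. Without LP Foxp3- array 1 the Th1 list had 1 fall and the Th2 list 0, without LP Foxp3+ array 1 they had 1 each, and without either second LP array 2 and 1. Il17a passed in every refit without 1 array, while Ifng and Ahr were lost without LP Foxp3+ array 2 or LP Foxp3- array 2, and Il4 without LP Foxp3+ array 1, LP Foxp3- array 1 or LP Foxp3- array 2.

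Of the genes known to be lower in Foxp3-expressing T cells, 4 of 13 tested fell, 0 rose and all 13 differences were below 0, with a median of -0.53. Pde3b, a phosphodiesterase that degrades cyclic AMP and a known target of repression by Foxp3, lay far above the array median in both sorts, with 11.42 and 11.40 in Foxp3+ cells and 13.21 and 13.08 in Foxp3- cells (-1.73 ± 0.21, adjusted p = 0.00232). The other 3 were Ifng, Il4 and the TGFbeta co-receptor Tgfbr3 (-1.46 ± 0.19), for which another tested probe set hardly differed (0.05) and did not pass. Without LP Foxp3- array 2 the list had 2 falls, Pde3b and Tgfbr3.

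Genes of TGFbeta and retinoid signalling passed in both directions, with 3 of 25 and 4 of 12 tested members, against 3.58% of all genes tested. The median differences of the 2 lists were 0.05 and -0.09. Among the TGFbeta genes the signalling receptor Tgfbr1 rose, with 10.77 and 10.81 in Foxp3+ cells and 9.77 and 10.09 in Foxp3- cells (0.86 ± 0.19), while Tgfbr3 and the activin receptor Acvr2a (-0.98 ± 0.20) fell. The signal transducer Smad3 (0.43 ± 0.12), its inhibitor Smad7 (-0.16 ± 0.15) and the ligand gene Tgfb1 (0.45 ± 0.17) did not pass. Of the retinoid genes the retinaldehyde reductase Dhrs3 (1.04 ± 0.21), the receptor Rarg (0.62 ± 0.13) and the co-repressor Nrip1 (1.00 ± 0.22) rose, and Asb2, a retinoic acid-induced ubiquitin ligase subunit, fell (-0.65 ± 0.14). Rarb (-0.26 ± 0.20) and Cyp26b1 (-0.10 ± 0.14), strong targets of retinoic acid, did not pass, nor did the gut-homing integrin chains Itga4 (0.62 ± 0.26) and Itgb7 (0.07 ± 0.18). Another tested probe set of Itga4 did pass in the limma fit of all probe sets (0.55, adjusted p = 0.0407). With any of the 4 LP arrays left out, 0 of the retinoid genes passed, and Tgfbr1 and Acvr2a were both lost without LP Foxp3+ array 1, LP Foxp3+ array 2 or LP Foxp3- array 1.

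Among 19 tested S100, annexin and galectin genes 3 rose and 1 fell (median 0.06), and among 26 tested glycan enzymes 2 rose and 2 fell (median -0.02). Lgals3, which encodes galectin 3, had 8.91 and 9.13 in Foxp3+ cells and 10.95 and 11.18 in Foxp3- cells (-2.04 ± 0.26, adjusted p = 0.00321), while S100a4 (1.59 ± 0.32), S100a6 (0.67 ± 0.14) and S100a1 (0.64 ± 0.15), calcium-binding proteins, rose. The sialyltransferases St3gal6 (-2.68 ± 0.37) and St8sia1 (-0.86 ± 0.15) fell, and St3gal2 (0.75 ± 0.16) and the sulfotransferase Chst15 (1.06 ± 0.16) rose. The Foxp3+ arrays of St3gal6 (4.71 and 5.01) lay below the array median, so its fold may be understated. The S100 genes were called in 3 to 8 of the 11 refits without 1 array, St3gal2 in 5, St8sia1 in 7, Chst15 in 10, and St3gal6 and Lgals3 in all 11. Both St3gal2 and St8sia1 were lost without any 1 of the 4 LP arrays.

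Other large falls were of single genes with varied roles. Tjp1, a tight junction scaffold, had 4.40 and 4.47 in Foxp3+ cells and 9.17 and 6.83 in Foxp3- cells (-3.56 ± 0.57), and Cdh1, E-cadherin, had 5.93 and 5.80 in Foxp3+ cells and 8.03 and 7.20 in Foxp3- cells (-1.75 ± 0.30). The Foxp3+ level of Tjp1 was more than 1 log2 unit below the array median, and its 2 Foxp3- arrays were far apart. Kit, the stem cell factor receptor, had 8.49 and 8.43 in Foxp3+ cells and 10.10 and 10.06 in Foxp3- cells (-1.62 ± 0.28). Lypd6b (-3.28 ± 0.45), Tdrp (-2.40 ± 0.34), Plac8 (-1.86 ± 0.39), the acid phosphatase Acpp (-1.88 ± 0.24), the alpha-fetoprotein gene Afp (-2.0 ± 0.21), the nebulin-like Nebl (-1.81 ± 0.24) and the channel gene Cnga1 (-1.54 ± 0.16) fell as well, with the non-coding RNA Mirt1 (-2.10 ± 0.33) and the RIKEN transcript 4930486L24Rik (-2.32 ± 0.28). Slc30a4, a zinc exporter, was the single call among 11 tested zinc genes (-0.99 ± 0.13), against 3.58% of all genes tested. Both Foxp3+ arrays of Lypd6b (5.04 and 4.71), Afp (4.22 and 5.23) and Cnga1 (4.40 and 4.94) lay below the array median, so these falls may be understated. Plac8 was called in 4 of 11 refits without 1 array, Cdh1 in 8 and Kit in 9.

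No metabolic list had a passing member. The counts were 0 of 25 tested glycolysis and hypoxia genes, 0 of 18 amino acid response genes, 0 of 20 sterol and fatty acid genes, 0 of 21 respiratory chain genes and 0 of 10 housekeeping genes in limma's paired and unpaired models. At an unadjusted p below 0.05 in the paired model they were 1, 1, 1, 0 and 0 in the same order. Of 36 tested cell cycle genes 30 had a difference below 0 (median -0.32), 11 of them at an unadjusted p below 0.05, and the 2 that passed rose: Ccnd2, cyclin D2, with 12.41 and 12.71 in Foxp3+ cells and 11.72 and 11.81 in Foxp3- cells (0.80 ± 0.13), and Cdkn1a (p21), an inhibitor of the cell cycle, with 9.68 and 9.39 in Foxp3+ cells and 7.70 and 8.46 in Foxp3- cells (1.46 ± 0.31). Over all genes tested 2.4% rose. Without LP Foxp3- array 1 the cell cycle list had 3 falls and 0 rises, without LP Foxp3- array 2 it had no call, and with either LP Foxp3+ array left out it had a single rise.

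The same sort in the 2 spleen DC cultures compares other arrays than the lamina propria comparison. All of these arrays were fitted in the same limma model, so the tests of a gene share its residual variance and the array-number term. A gene with a low shared variance can pass more easily in each culture. The overlap of calls below is therefore not agreement between independent tests. With spleen DC 66 genes passed (0.557%), and with spleen DC plus retinoic acid, where the Foxp3- group has 1 array, 3 passed (0.0253%). Of the 424 genes, 60 also passed with spleen DC, which is 14.2% of the 424 and 90.9% of the 66, all in the same direction. Of the 284 genes that rose with lamina propria DC, 264 had a difference above 0 with spleen DC, against 45.2% of all genes tested, and of the 140 that fell 137 had one below 0. Median differences of the 284 were 1.04 with lamina propria DC, 0.51 with spleen DC and 0.40 with spleen DC plus retinoic acid, and those of the 140 were -1.02, -0.68 and -0.54. The genes were chosen by their lamina propria values, which favours a larger size there. Among the 66 genes chosen with spleen DC, 40 had the larger difference with lamina propria DC.

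Single genes of each kind show the range. Ecm1 differed by 3.29 ± 0.14 with lamina propria DC and 2.86 ± 0.14 with spleen DC, and Cpe, on its brightest probe set, by 2.87 ± 0.65 and 2.92 ± 0.65. Cd83 differed by 2.44 ± 0.15 with lamina propria DC and 0.54 with spleen DC, and Ifng by -2.03 ± 0.39 and 0.42. Il17a gave -1.19 with lamina propria DC and -0.06 with spleen DC, and Maf -1.40 and 0.20. The difference between the 2 differences was tested for each gene. None of 11846 genes passed against spleen DC (434 with an unadjusted p below 0.05, lowest adjusted p 0.0911) and none against spleen DC plus retinoic acid (401 below 0.05, lowest adjusted p 0.102) in limma's paired model. The unpaired model gave 0 as well, with 108 and 135 genes below an unadjusted 0.05. No rise or fall above was therefore shown to be particular to lamina propria DC. Without LP Foxp3+ array 1, Cd83 (2.08), Lad1 (2.87) and Scin (2.03) passed against spleen DC (adjusted p = 0.0466 for each) and Scin (3.05, adjusted p = 0.0146) against spleen DC plus retinoic acid. Scin was named for this result after its values were seen.

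**Figure D5:**
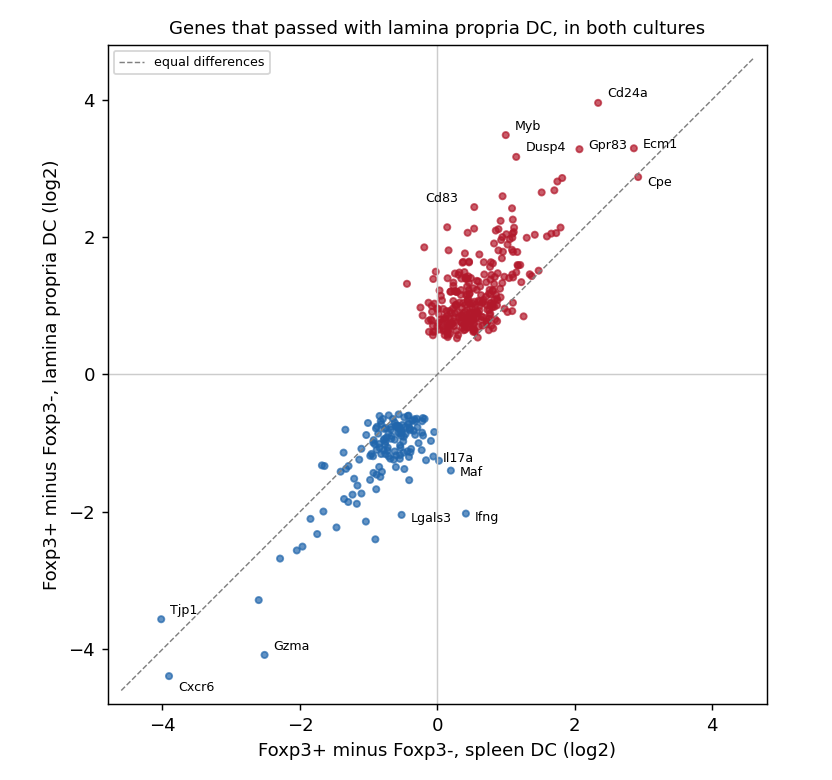
Foxp3+ minus Foxp3- difference (log2) with spleen DC (x axis) and with lamina propria DC (y axis) for the 424 genes that passed with lamina propria DC; red points rose and blue points fell with lamina propria DC, and the dashed line marks equal differences. 401 of the 424 points have the same sign on both axes, with Ifng and Maf among the exceptions.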

How the data were processed

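The authors' deposited table holds linear RMA intensity values of 45101 probe sets on 17 arrays, computed in GenePattern per the labels (version not given in the sources used here). Intensities span 4.058 to 27165, array medians span 59.03 to 63.17, and the number of arrays limits the precision. The log2 was taken with no pseudocount or further normalization. Of the probe sets 34958 have 1 symbol in the platform table, 932 several and 9211 none. Each of 18194 genes is its brightest probe set (cross-hybridizing sets passed over) and was tested if above the array median on at least 2 of the 11 culture arrays. Compared levels are within a probe set; levels of different genes are not on a common scale.

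limma 3.58.1 (R 4.3.3) fitted 1 coefficient for each of 6 groups plus the array number, with empirical Bayes and Benjamini-Hochberg adjustment over 11846 genes. Residuals of same-numbered arrays correlated at 0.446 to 0.752 over 10 pairs of groups. Groups follow titles and sorts. Named are the 25 largest rises and falls without overlap, passing members of 34 lists (740 entries, 685 with a probe set) and genes always named, 3 of which are not reported here. Members, lists and tests were chosen with earlier results of these data known. The fit was tested on simulated data. Memory cell arrays entered only 1 alternative. Alternatives were no replicate block, quantile normalization, centring, other filters, log2 of the value plus 32, mean probe sets, trended or robust variances, all arrays, LP arrays alone and each array left out.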

Additional observations from a re-analysis of the deposited data

How the results depend on the processing

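Against 284 genes higher and 140 lower, the model with no replicate block called 12 and 4, so pairing of the arrays decides most calls. The 4 LP arrays alone gave 500 higher and 264 lower. Leaving out 1 array at a time gave 102 to 304 higher and 57 to 149 lower. The total of 424 fell to 168 without LP Foxp3+ array 1, 185 without LP Foxp3+ array 2, 178 without LP Foxp3- array 1 and 305 without LP Foxp3- array 2. Genes passing for lamina propria minus spleen DC numbered 0 to 3 over those refits and 1 (Cd83, adjusted p = 0.0238) when all 17 arrays were fitted together, and genes passing against spleen DC plus retinoic acid numbered 0 to 1. Quantile normalization, centring, other filters, a pseudocount of 32, mean probe sets, and trended or robust variances kept both counts within 1.5 times. Of 122 named genes that passed, 122 kept their sign in every setting, and 55 passed in every refit without 1 array. With 2 arrays a group, a missed threshold does not show that a gene is equal.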
